A study of Pseudotsuga menziesii with 72 samples.

Results

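Averaged over trees and days, 99 transcripts of Douglas-fir needles stood high and nearly level through the night collections at 22:00, 2:00 and 6:00. They stood lower at 10:00, 14:00 and 18:00. These night-plateau transcripts were chosen by their measured levels, from 180879 transcripts in all. Levels are in CPM, the count scaled to the library's total. A transcript was considered when its mean lay from 5 to under 1000 CPM and every tree averaged at least 1 CPM, which held for 16040 transcripts, called the level range here. It was a member when its 3 night means lay within 1.5-fold of each other and the lowest of them was at least 1.5 times the highest daytime mean. No more than 99 met this, so the cap of 200 members was not reached.

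Needles were taken from 6 trees of Pseudotsuga menziesii, 3 years old, which the labels describe as 3 half-sib families with a pair of trees each: 1A with 1B, 2A with 2B, 3A with 3B. The family tags of the 1 and 2 pairs carry the same number. All derived from the Oregon Siskiyou low elevation source and were grown in Corvallis, Oregon, and the labels name no treatment. A sample held 8 to 12 needles of that year's cohort, the first being collected at 2:00 in early September, and collections followed every 4 h over 48 h. The 12 collections fall into night (22:00, 2:00 and 6:00) and daytime (10:00, 14:00 and 18:00), and into day 2 (hours 24 to 44) and day 1 (hours 0 to 20). The same trees were sampled again at each collection, each collection is a single date, and p-values describe these 6 trees on these dates.

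The transcripts carry identifiers of the form psme_t057176 without gene names, so no member is given a function here, and the needle label could not be checked against marker genes. Plants time much of their gene expression with an internal clock, loops of genes that repress each other, which light at dawn resets. In Arabidopsis, evening and night genes of that clock act when the sun is down, while stored starch is broken down to feed the leaf until morning. Transcript levels in leaves are known to follow the clock, light and temperature, which sampling under a natural day does not separate.

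The clock times rest on the hours in the titles, since a separate collection-time tag differs from the title for 62 of the 72 libraries. Libraries held 10.3 to 55.9 M counts, with a median of 21.7 M at night and 23.8 M in the daytime. At hour 4, the libraries labelled 1B and 2A stood apart. After removal of the collection means, the one labelled 1B correlated at 0.72 with the mean of tree 2A and at -0.15 with tree 1B, over the transcripts of the level range. The one labelled 2A correlated at 0.59 with tree 1B and at -0.17 with tree 2A. The rule left both out, so 70 libraries were used, 34 of the night and 36 of the daytime.

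The night levels of the members formed one high block and the daytime levels one low block, with a step at each end of the night. Relative to a transcript's own mean over all libraries, the median member stood at 1.41 at 22:00, 1.45 at 2:00 and 1.39 at 6:00. In the daytime it stood at 0.63 at 10:00, 0.54 at 14:00 and 0.65 at 18:00. These values chose the members, and they are given as a description without a test. In needle RNA taken as bulk, fewer cells of a type and less RNA per cell cannot be told apart.

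**Figure D1:**
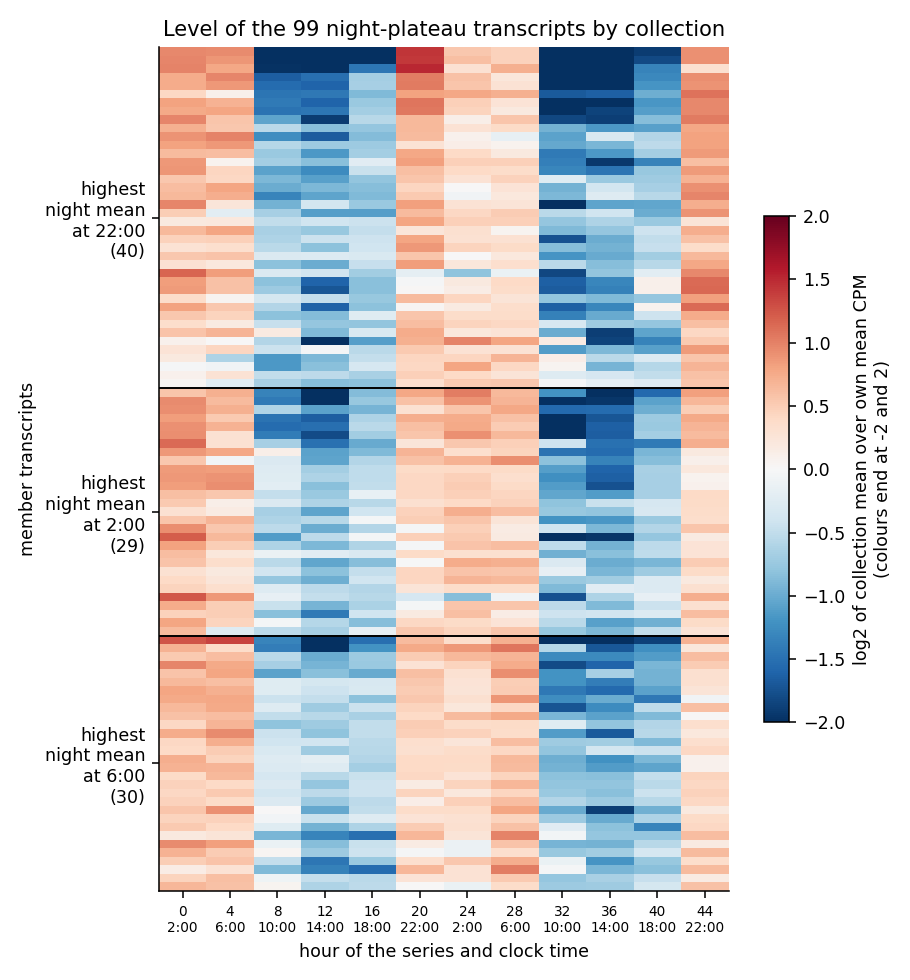
Each row is 1 of the 99 members and each column 1 of the 12 collections (hour of the series above, clock time below). Colour is the log2 of the collection's mean over the transcript's own mean CPM, and lines part the 40 members highest at 22:00, the 29 highest at 2:00 and the 30 highest at 6:00. The columns of 22:00, 2:00 and 6:00 are mostly above the mean and those of 10:00, 14:00 and 18:00 mostly below it, on both days.

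The step was 1.5-fold or more by the rule, which set it no upper limit. The ratio of the lowest night mean to the highest daytime mean ran from 1.51 to 6.63 with a median of 1.77 (quartiles 1.62 and 2.04). It reached 2 in 27 members, 3 in 5, 4 in 4 and 5 in 3, so that most members changed moderately and a few changed many-fold. The 3 night means, held to 1.5-fold by the rule, lay within a median of 1.23-fold of each other, within 1.2-fold in 43 members and within 1.1-fold in 17. Mean levels were low to moderate: 46 members averaged 5 to under 10 CPM, 34 averaged 10 to under 20, 12 averaged 20 to under 50 and 7 averaged more, up to 129 CPM.

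The highest night mean was spread over the 3 night hours. It fell at 22:00 in 40 members, at 2:00 in 29 and at 6:00 in 30. The daytime had a clearer form, a trough around 14:00. The lowest daytime mean fell at 14:00 in 61 members, at 10:00 in 24 and at 18:00 in 14. The level at 18:00, the last daytime collection, was above that at 14:00 in 79 of 99 members (median ratio 1.27).

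The step across dawn was, in the median, slightly larger than the step across dusk. The level at 6:00 was a median of 2.26 times that at 10:00 (1.52 to 11.9 over the members), and the level at 22:00 was a median of 2.13 times that at 18:00 (1.56 to 9.52). The dusk step was the larger one in 31 of 99 members. Collections lay 4 h apart, so when within an interval a step took place is not resolved.

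The night that was sampled without a break, hours 20, 24 and 28, had the same form in most members. Over those 3 collections 80 of 99 members stayed within 1.5-fold. Those that did not include psme_t057176, psme_t055959 and psme_t016454, among the largest ratios of the list. Relative to its own mean, psme_t057176 stood at 2.69, 1.45 and 1.37 at hours 20, 24 and 28. In the same order psme_t055959 stood at 2.67, 1.53 and 1.37, and psme_t016454 at 2.85, 1.24 and 1.64. In 97 members the lowest of the 3 collections lay above both the collection before (hour 16, 18:00) and the one after (hour 32, 10:00). The median member's lowest mean of that night was 1.82 times its level at hour 16 and 2.36 times that at hour 32. Hours 20 to 28 are part of the values that chose the members.

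Summed over the 99 members, the level was higher at night in every tree. It averaged 2607 ± 343 CPM at 22:00 (SD, n = 12 libraries), 2681 ± 312 at 2:00 (n = 12) and 2591 ± 339 at 6:00 (n = 10). It averaged 1076 ± 201 CPM at 10:00, 933 ± 165 at 14:00 and 1168 ± 270 at 18:00 (n = 12 each). The lowest night library, at 2024 CPM, lay above the highest daytime library, at 1791 CPM, so night and daytime sums did not overlap. The rule chose each member by this contrast in these libraries, so nothing is read from the separation.

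**Figure D2:**
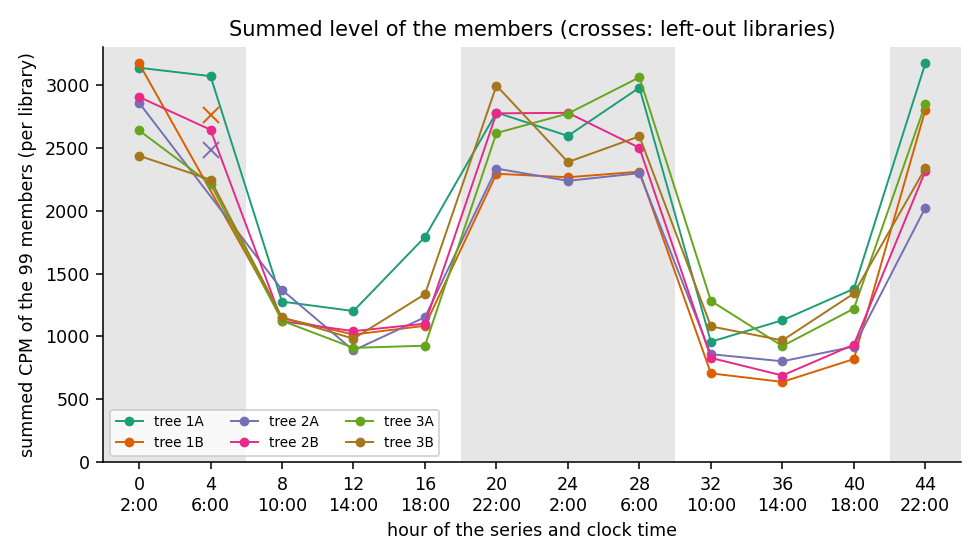
Summed CPM of the 99 members in each library (vertical axis, from 0) against the hour of the series with its clock time, 1 line per tree. Grey marks the collections at 22:00, 2:00 and 6:00, and crosses are the libraries left out of the rule, at 2762 CPM for the one labelled 1B and 2478 CPM for the one labelled 2A. All points in the grey areas lie above all points outside them, which lie at 639 to 1791 CPM. For the libraries of the rule, this contrast chose the members.

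The largest step belonged to psme_t057176, which lay near 1 CPM in the daytime. It measured 5.63 to 24.2 CPM in the 34 night libraries (median 12.8), against 0.0766 to 3.44 CPM in the 36 daytime libraries (median 1.05). By clock time it averaged 16.4 ± 5.98 CPM at 22:00, 12.2 ± 4.04 at 2:00 and 11.4 ± 3.39 at 6:00, then 0.961 ± 0.583 at 10:00, 1.00 ± 0.573 at 14:00 and 1.72 ± 1.01 at 18:00 (SD over 10 libraries at 6:00 and 12 at each other time). Every night library stood above every daytime library. The daytime values rest on 2 to 87 counts per library and the night values on 117 to 680.

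Its companion in rank, psme_t055959, also separated all libraries. It measured 9.32 to 45.2 CPM at night (median 22.5), against 0.23 to 7.07 CPM in the daytime (median 1.84). These were the only 2 of the 99 members whose night and daytime libraries did not overlap. In the level range, 3 transcripts (0.0187%) had every night library above every daytime library, and the rule used that contrast, so nothing is read from the count.

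The next members by ratio had steps of 2.69 to 5.05, with single libraries that crossed. For psme_t033818 the night libraries measured 13.1 to 62.3 CPM (median 25.9), against 0.192 to 15.7 CPM in the daytime (median 3.44). For psme_t016454 they measured 12.6 to 77.8 CPM (median 32.1), against 0.728 to 22.4 CPM (median 3.56). In psme_t033818, 1 daytime library reached above the lowest night library and 3 night libraries lay below the highest daytime library. In psme_t016454 these counts were 2 and 7.

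The pair psme_t019469 and psme_t025693 had similar ranges. The first measured 10.3 to 62.9 CPM at night (median 21.1), against 1.61 to 33.4 CPM in the daytime (median 4.31). The second measured 10.4 to 62.9 CPM at night (median 24.6), against 2.11 to 34.7 CPM in the daytime (median 5.45). In both, 2 daytime libraries lay above the lowest night library, and 23 night libraries lay below the highest daytime library. Their tree means differed, with 9.43 CPM for psme_t019469 and 12.4 CPM for psme_t025693 in tree 1B, and 30.5 CPM for each in tree 1A. Tree 1A, with daytime means of 13.3 and 13.5 CPM in these transcripts, was the highest of the 6 trees in the daytime.

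Abundant members crossed too. The most abundant, psme_t015491, with a ratio of 1.86, measured 71.8 to 380 CPM at night (median 166), against 14.0 to 163 CPM in the daytime (median 67.7). In psme_t005329, at 33.4 to 105 CPM at night (median 66.2) against 5.09 to 35.2 CPM in the daytime (median 15.9), 1 daytime library passed the lowest night library and 2 night libraries lay below the highest daytime library. Its ratio was 2.71, and 1.75 on day 2 alone. The daytime levels of psme_t005329 declined to 9.47 ± 3.24 CPM at 14:00, beside 20.6 ± 8.45 at 10:00 and 16.7 ± 2.08 at 18:00 (SD, n = 12 each).

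The flattest nights belonged to transcripts of low level. In psme_t029890 the means were 8.05 ± 2.09 CPM at 22:00, 8.26 ± 2.52 at 2:00 and 8.12 ± 3.14 at 6:00, before 5.06 ± 2.26 at 10:00, 3.33 ± 0.814 at 14:00 and 4.04 ± 0.913 at 18:00. Its night means differed by less than the spread between libraries of a single hour. The night means of psme_t003803 ran from 7.18 to 7.50 CPM and those of psme_t008415 from 7.86 to 8.35 CPM, likewise inside that spread.

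At the edge of the list the step fades into the rest. The last members were psme_t003571, psme_t025578 and psme_t015015, the last of them with a ratio of 1.51. The nearest transcripts outside, psme_t008227, psme_t013764 and psme_t011016, had ratios of 1.498, 1.498 and 1.494. Of the level range, 116 transcripts had the step of 1.5 whatever the shape of their night, and 13838 had night means within 1.5-fold. The mirrored rule, with 10:00, 14:00 and 18:00 high, was met by 4 transcripts with ratios of 1.50 to 1.97.

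**Figure D3:**
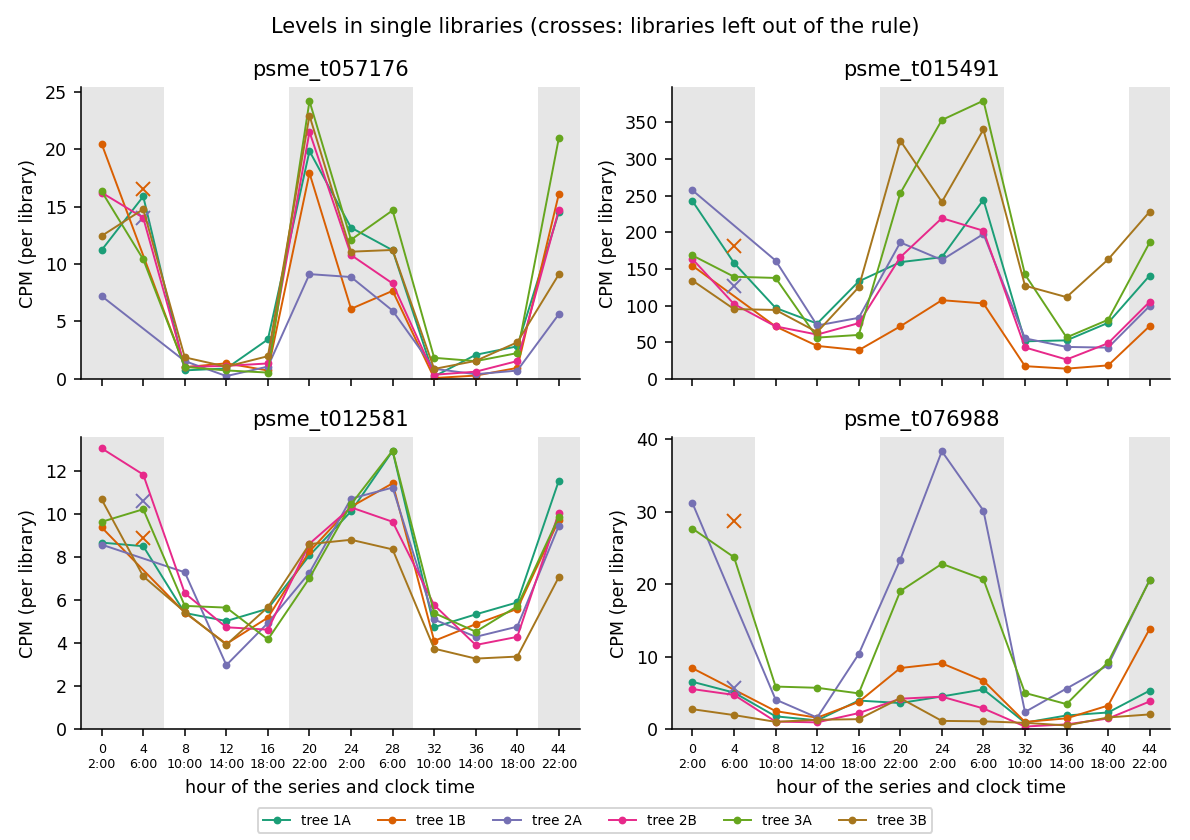
CPM in each library (vertical axes, from 0) against the hour of the series with its clock time, 1 line per tree, for the member with the largest step (psme_t057176), the most abundant (psme_t015491), the one with the second smallest spread between trees (psme_t012581) and the one with the largest (psme_t076988). Grey marks 22:00, 2:00 and 6:00, and crosses are the left-out libraries. In psme_t012581 the 6 lines run together at 7.02 to 13.0 CPM at night, while in psme_t076988 trees 2A and 3A run far above the others.

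Each member was also followed within each tree, as a description, since the trees' libraries are those whose means chose the members. The lowest of a tree's 3 night means exceeded the highest of its 3 daytime means in 98 members in tree 2B, 97 in tree 1B, 95 each in trees 1A and 3A, 93 in tree 3B and 88 in tree 2A. That held in all 6 trees for 77 members, in 5 for 16 and in 4 for 6. The mean night level exceeded the mean daytime level in all 6 trees for 98 members. The exception was psme_t036422, at 2.02 CPM at night and 2.42 CPM in the daytime in tree 2B, but at 17.9 CPM at night and 8.01 CPM in the daytime in tree 3B.

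**Figure D4:**
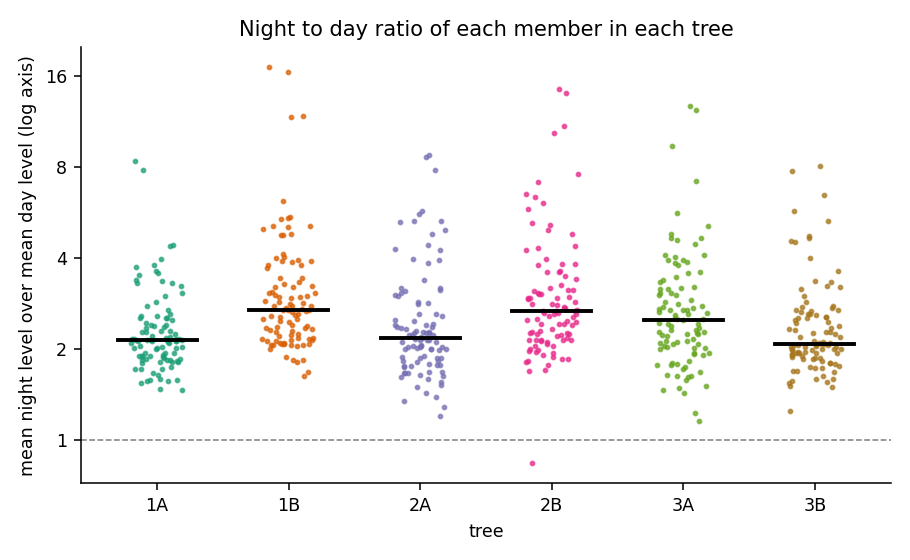
Each point is 1 member in 1 tree, at its mean night level over its mean daytime level (log axis), with the tree's median as a black bar. The medians run from 2.07 in tree 3B to 2.70 in tree 1B, and a single point, psme_t036422 in tree 2B, lies under the dashed line of equal levels.

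The trees differed in how much of these transcripts they held. Over all 52820 transcripts tested with edgeR's quasi-likelihood test and Benjamini-Hochberg adjustment, 94 of the 99 members differed between trees at an adjusted p under 0.05. That share is close to the background, since 91.6% of all tested transcripts and 95.5% of the level range passed as well. The members that did not pass were psme_t033818, psme_t031446, psme_t017880, psme_t010677 and psme_t012581, named after their values were seen.

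Members spread more widely between trees than the median transcript of their level range did. The highest tree mean was a median of 1.98 times the lowest in members, against 1.60 times in the level range. The tree means lay within 1.5-fold in 15 members and over 4-fold apart in 8. Tree 1A was the highest in 41 members, and the lowest was 2A in 25 and 1B in 22. No test was made of this difference.

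The widest spread was that of psme_t076988, whose means were 16.1 CPM in tree 2A and 14.1 in tree 3A, then 5.46 in tree 1B, 3.54 in tree 1A, 2.69 in tree 2B and 1.66 in tree 3B (adjusted p = 5.51e-24, edgeR). Trees 2A and 3A stood apart from the other 4, and even so the night exceeded the daytime in each tree, from 28.7 against 5.48 CPM in 2A to 2.2 against 1.11 CPM in 3B. In psme_t015212 tree 1A was low, at 2.60 CPM, and tree 3A high, at 24.9 CPM (adjusted p = 1.03e-21). At the other end, psme_t025578 lay between 94.5 and 111 CPM and psme_t012581 between 6.33 and 7.76 CPM in the 6 trees. For psme_t012581 the tree test gave an adjusted p of 0.154.

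Whether the night step itself differed between trees was asked with a tree by night term. None of the 99 members passed in edgeR (0 called), and 24 had an unadjusted p under 0.05, as did 2.46% of the level range. In the last 8 collections alone, 47 members had an unadjusted p under 0.05 in edgeR, as did 1196 of the 16040 transcripts of the level range. In limma on the authors' normalized values 1 member passed, psme_t015015. At the adjusted threshold the background was 0.00757% of all tested transcripts and 0.00623% of the level range. Unadjusted p under 0.05 were thus more frequent among members than in the level range, while calls were near absent in both. Members that move together are not independent. They were also chosen for a large night step, unlike the level range, so nothing is read from the difference.

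The member nearest to passing was psme_t015015, with an adjusted p of 0.0802 in edgeR, 0.0316 in limma and 0.00201 in the last 8 collections alone. Its night and daytime means were 34.2 and 13.3 CPM in tree 1A and 28.9 and 9.47 CPM in 1B, while the night and daytime means were 20.9 and 17.1 CPM in 3A and 22.5 and 18.1 CPM in 3B. Next came psme_t035630 (adjusted p = 0.198), with 31.5 CPM at night and 5.90 CPM in the daytime in 2A, and 3.69 CPM at night and 1.29 CPM in the daytime in 3A. Summed over the members, the night to daytime ratio ran from 2.18 in tree 3B to 2.85 in tree 1B.

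Between the days, more members were lower on day 2 than higher. Of the 99, 53 changed in edgeR's test at an adjusted p under 0.05, of which 48 fell and 5 rose on day 2 relative to day 1. The count of changes was that of the background, where 32.7% of all tested transcripts and 53.0% of the level range passed. The directions were not, since 27.2% of the level range was higher on day 2 and 25.8% lower. Members that move together are not independent, and this difference in directions was not tested. The median log2 change was -0.25 in members and 0.00 in the level range, and 78 of 99 members had a change below 0. Library totals had a median of 24 M counts on day 2 and 21.7 M on day 1.

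Fewer members passed without the first 4 collections, all of which belong to day 1. In the last 8 collections alone, 17 members passed, 10 lower and 7 higher (background 26.2% of the level range), and the median log2 change was -0.09, with 65 of 99 below 0. With a term for each tree's first 4 and last 8 collections, 14 passed, 8 lower and 6 higher (23.5%), with a median of -0.08. Among the last 8 collections only 18:00 and 22:00 fall on both days. In both of these fits the change between days therefore rests on 18:00 and 22:00 alone, here and wherever they are named below. Libraries of the same tree resembled each other more within the first 4 or the last 8 collections (median correlation of deviations 0.80) than across them (0.57), and the part this has in the change between days was not tested. When the 6 trees of each collection were added up 19 passed, 18 lower and 1 higher (10.8%), and with library totals in place of TMM 50 passed, 39 lower and 11 higher (53.9%).

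By the medians, the difference between days was largest at 10:00, but the clock times did not compare the same sets of collections. At 2:00, 6:00, 10:00 and 14:00, day 1 is one of the first 4 collections and day 2 a later one. At 18:00 and 22:00, both days come after the first 4. Clock time and this split of the collections are thus tied together, and the part of each was not tested. At 10:00 the median member's level on day 2 over day 1 was -0.66 on the log2 scale, and 77 of 99 members were lower. At 22:00 it was 0.01, with 47 lower. At 2:00 it was -0.23, at 6:00 -0.16, at 14:00 -0.19 and at 18:00 -0.18, while the level range stayed between 0.00 and 0.03 at each clock time. At 6:00, where 4 trees could be compared, library totals in place of TMM turned the members' median to 0.04, with the level range at 0.23.

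**Figure D5:**
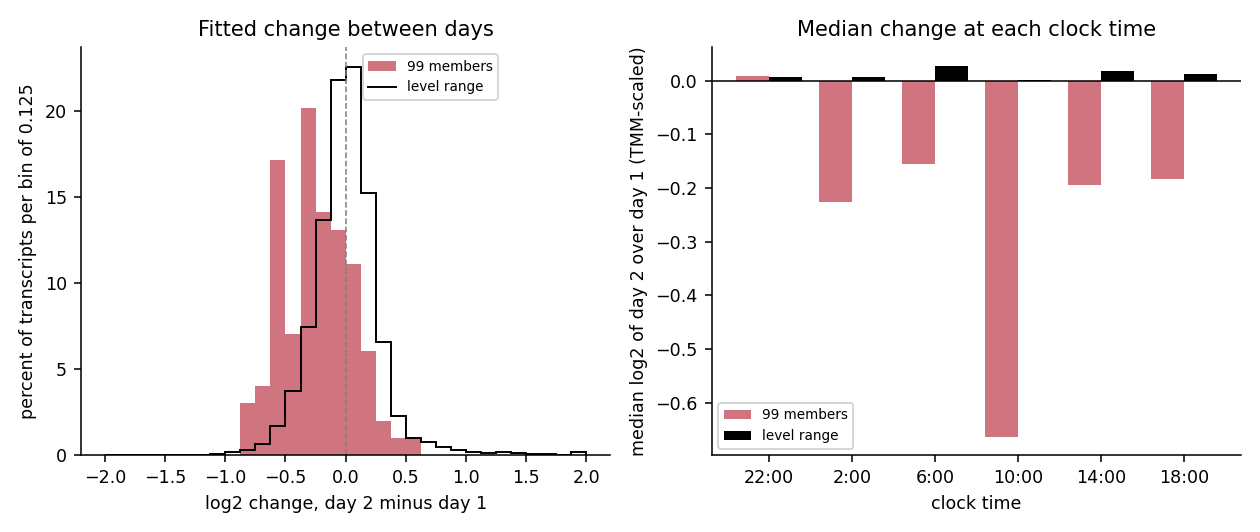
Left, the percent of transcripts (vertical axis) in each bin of log2 change from edgeR, day 2 minus day 1, for the 99 members (red) and the level range (black line). Right, the median log2 of day 2 over day 1 at each clock time for both. Most members lie left of 0, with a median of -0.25, and the longest bar is that of 10:00, at -0.66. The bar of 10:00 compares the earliest collections of the series with later ones, which not every bar does.

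The largest fall was that of psme_t060255. It measured 55.5 to 268 CPM at night (median 116), against 9.04 to 118 CPM in the daytime (median 36). Its log2 change between days was -0.85 ± 0.10 (SE, edgeR adjusted p = 6.7e-10), and it was lower on day 2 in 33 of 34 pairs of libraries of the same tree and clock time. It also passed in the last 8 collections alone, at -0.59 (adjusted p = 0.00852).

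The largest rise was that of psme_t036422, at 0.52 ± 0.13 (adjusted p = 0.00156), higher on day 2 in 27 of 34 pairs. In the last 8 collections its change was 0.14 (adjusted p = 0.686), so that it did not pass without the first 4. The abundant psme_t025578 rose by 0.46 ± 0.06 (adjusted p = 1.15e-09) and was higher in 31 of 34 pairs. It rose in the last 8 collections as well, by 0.33 (adjusted p = 0.00395). In psme_t005329 the direction depended on which clock times were compared. It rose by 0.23 ± 0.09 over all 12 collections (adjusted p = 0.0329), and the rise did not pass without tree 1A, 2B, 3A or 3B. It fell in the last 8, at -0.35 (adjusted p = 0.0015), where only 18:00 and 22:00 are compared. Relative to its own mean, it stood at 0.44 on day 1 and 0.43 on day 2 at 18:00. At 22:00 it stood at 1.70 and 1.17. At every other clock time its mean was higher on day 2. This difference between clock times was not tested.

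Whether the night step differed between the days was asked with a day by night term. Of the 99 members 1 passed, psme_t032079, where the background was 0.312% of all tested transcripts and 0.717% of the level range. Its night level averaged 63.2 ± 24.6 CPM on day 2 (SD, n = 18) and 70.7 ± 27.6 CPM on day 1 (n = 16). Its daytime level averaged 15.4 ± 6.28 CPM on day 2 and 30.0 ± 11.5 CPM on day 1 (n = 18 each). The term was 0.82 ± 0.18 on the log2 scale (adjusted p = 0.0272), a larger night to daytime difference on day 2. It did not pass without tree 1A, 1B or 2B (adjusted p = 0.119, 0.255 and 0.206), nor in the last 8 collections (0.492), where the term was 0.88. In those 8 only 18:00 and 22:00 fall on both days, so the term there compares 22:00 with 18:00 alone.

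Most other members leaned the same way without passing. The median of the term was 0.24 in members and -0.01 in the level range, 73 of 99 were above 0, and 43 had an unadjusted p under 0.05, as did 14.9% of the level range. The strongest in the other direction was psme_t095099, at -1.08 (adjusted p = 0.0559). Its term was -0.03 in the last 8 collections alone, where 22:00 is compared with 18:00 only. With the term for the first 4 and last 8 collections, 13 members passed, 9 above 0 and 4 below, where the background was 3.55% of the level range. The members were chosen for a large night step, unlike the level range, so nothing is read from these differences in frequency.

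Some members moved together from library to library beyond the shared daily pattern. After removal of the collection means, the correlation of log2 levels between members over the 70 libraries had a median of 0.19 over 4851 pairs, against 0.09 in transcripts of the level range. With the tree means removed too it was 0.25, against 0.09. These libraries share trees, depth and composition, so the values are a description. With both removed and at a correlation above 0.8, a limit chosen after the values were seen, 45 members fell into 16 linked groups of up to 6. Pairs within a group need not reach that limit. In the group of 6 the lowest correlation was 0.71 and the median 0.79. Links at this limit were not counted over the level range, so nothing is read from the 45. Removing tree means leaves the difference between a tree's early and later collections, described above, in place.

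Among the tight links were pairs from the top of the list. With collection means removed, psme_t019469 and psme_t025693 correlated at 0.97 and psme_t057176 and psme_t055959 at 0.94. In 1 group, psme_t019469, psme_t025693, psme_t003277 and psme_t021254 all had their highest night mean at 22:00 and their highest daytime mean at 18:00. Each of the 4 was lower on day 2, by log2 changes of -0.51, -0.49, -0.52 and -0.51 (edgeR adjusted p from 0.000146 to 0.000357). None of the 4 passed in the last 8 collections alone, where the changes were -0.27, -0.27, -0.27 and -0.21 (adjusted p from 0.316 to 0.486). Whether linked transcripts are near-identical copies that share reads could not be checked without their sequences, so linked members are not counted as separate genes.

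The libraries left out of the rule give levels that it did not use. Both were collected at hour 4, at 6:00 on day 1. In the one labelled 1B, 93 of 99 members exceeded their highest daytime mean and 60 exceeded every daytime library. In the one labelled 2A, 89 exceeded their highest daytime mean and 60 exceeded every daytime library. These counts were not made over the level range, so they are given as a description and nothing is read from them. The summed levels of the members in the libraries labelled 1B and 2A, 2762 and 2478 CPM, lay among the 2213 to 3069 CPM of the other 4 libraries of that collection. In psme_t076988, high in tree 2A, the library labelled 1B held 28.7 CPM and the one labelled 2A held 5.69 CPM, where the night means of trees 2A and 1B were 28.7 and 9.29 CPM.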

How the data were processed

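PolyA RNA of Douglas-fir needles was sequenced as strand-specific TruSeq libraries on a HiSeq instrument, per the labels' protocols. The counts table, as deposited by the authors, holds raw whole-number counts per transcript for 72 libraries, and the submitters' processing notes name Bowtie2 2.2.3, CASAVA 1.8 and DESeq. The reference used for mapping was not given in the sources used here. Another table deposited by the authors holds a normalized signal for 41382 transcripts, which includes all 99 members. There each value is the count divided by 1 size factor per library (0.45 to 2.40, largest relative departure 7.55e-09).

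Titles gave each library its tree and its collection. CPM was computed with the sum of the library's column as its total. Where a test ran, transcripts were kept by filterByExpr (minimum counts of 10 and 15), scaled by trimmed means (TMM) and tested in edgeR 4.0.16 (quasi-likelihood F test; R 4.3.3), with Benjamini-Hochberg adjustment over all 52820 transcripts. The fits held clock time, day and tree, the tree entering as a replicate block because the titles name the same 6 trees at every collection. As a check, deviations from the collection means correlated at a median of 0.72 between libraries of the same tree and -0.16 between different trees. Night against daytime was used to choose the members and was not tested. All tests are two-sided, and the F tests over trees have no direction.

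The named members are the 10 of largest ratio, the 3 most abundant, the 3 flattest nights, the extremes of tree spread, the largest changes between days, the smallest p of the interaction tests and the edge of the list. The members and lists were chosen with earlier results of these data known. Alternatives were other scalings, filters, tools (DESeq2 1.42.0, limma 3.58.1 on log2 of the authors' normalized signal plus 1), sets of collections, trees left out and no replicate block. The tests were tried on simulated counts of the same design. The simulated counts had a single spread for every transcript, and no differences between trees, clock times or blocks of collections beyond planted ones. Nothing is read from that trial for these data. Figures used matplotlib 3.10.9 in Python 3.11.15.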

Additional observations from a re-analysis of the deposited data

Results flagged for a closer look

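The day by night term of psme_t032079 is listed because the change between days differed between night and daytime by a test of the difference itself. It was 1 call among 99 members, near the background of 115 among 16040 in the level range (0.717%). It did not pass without tree 1A, 1B or 2B, without a filter or replicate block, or with summed counts. The term was 0.82 on the log2 scale, and over the alternatives run its adjusted p in edgeR and limma ranged from 0.0114 to 1.

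At hour 4, the libraries labelled 1B and 2A lie outside the rule and held night-like summed levels of the members, 2762 and 2478 CPM, above the highest daytime library at 1791 CPM. Each resembled the other's tree, so the values are given under the labels. In all, 14 groups were examined for a single value far from the others, either the libraries of a collection or the ratios of the trees. Chance would single out about 1 in 20, and none stood apart by Dixon's criterion.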

How the results depend on the processing

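With other scalings, 82 transcripts met the rule with TMM-scaled CPM, of which 80 are members, and 81 with the authors' normalized values, of which 79 are members. With each tree left out in turn 89 to 103 met it. On day 1 alone 54 met it (48 of them members), on day 2 alone 118 (56 members) and in the last 8 collections 87 (58 members), and with a step of 1.3 or 2 in place of 1.5, 197 and 27 did. The median log2 night to daytime difference was 1.19 in members and -0.04 in the level range with TMM, and 1.25 and 0.00 with library totals.

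The count of 94 members that differed between trees stayed within 1.5 times under every alternative run. The 53 members that changed between days became 19 with counts summed per collection, 17 in the last 8 collections alone and 14 with a tree by block of collections term, and the 48 lower ones 18, 10 and 8. The last 8 collections and the block term compare the days at 18:00 and 22:00 only. Without a tree in turn 42 to 62 changed and 38 to 57 were lower, and with no replicate block 36 changed, 33 of them lower. For psme_t005329 the change turned to -0.35 in the last 8 collections and to -0.34 with the block of collections term. Both rest on 18:00 and 22:00, and its mean on day 2 was lower at 22:00 and nearly level at 18:00. The difference between clock times was not tested.

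The single day by night call became 0 without a filter, with no replicate block, with summed counts, in the last 8 collections and at an adjusted p under 0.01. It became 3 with limma (level range 0.892% called), 4 with at least 1 CPM in every library (1.66%, with 79 members left), 3 with the tree labels exchanged (1.18%) and 13 with the block of collections term (3.55%), against 0.717% of the level range as reported, and 0 to 2 without a tree in turn. For tree by night, 1 member passed without a filter, 1 with limma and 1 in the last 8 collections, psme_t015015 each time. Of the alternatives, the exchanged labels for membership, the removal of tree means from the correlation and the last 8 collections for the day by night test were added after the data were seen. Members of low daytime level rest on few counts in the daytime libraries. The lowest count of any member in a library was 2, which psme_t057176, with a mean of 7.15 CPM, had in a daytime library.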
